A study of Mus musculus with 32 samples.

Results

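The RNA recovered next to the postsynaptic scaffold PSD95 was compared with the RNA recovered from the whole cell in resting mouse cortical neurons. The comparison takes every pulldown library that the titles and the lentivirus and treatment labels place in resting neurons, 8 of the 32 libraries in the series, 4 with the PSD95 bait and 4 with the Pan bait. The 8 matching resting inputs served as the background, because they were made from the same lysates without enrichment.

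Primary cortical neurons from embryos of CD-1 mice were transduced with a lentivirus for either PSD95-TurboID, in which the biotin ligase TurboID is fused to PSD95, or Pan-TurboID, which carries the ligase with no such anchor. All of these cultures received cycloheximide for 2 min and then biotin for 30 min, and were crosslinked with ultraviolet light in pulses of 400 and 200 mJ/cm2. Biotinylated protein with its bound RNA was pulled down on streptavidin, and 15% of each lysate was kept as input. Resting cells got no potassium chloride, whereas the depolarized cells of the other 16 libraries did. Both baits were made from doxycycline-inducible transgenes. The PSD95 construct carries rat PSD95 coding sequence between PSD95 untranslated regions. The cell composition of the cultures was not examined here. A difference in the cells present and a difference in RNA per cell cannot be told apart in bulk libraries.

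PSD95 is the main scaffold protein of the postsynaptic density of excitatory synapses, where it holds glutamate receptors and signalling enzymes in place. Many messenger RNAs travel into dendrites and are translated near synapses, which lets a synapse change its proteins without waiting for the cell body. A proximity ligase anchored at PSD95 tags proteins close to it, and RNA crosslinked to those proteins comes along, while an unanchored ligase tags proteins throughout the cell. A transcript that lies mostly near synapses would be higher in the PSD95 pulldown, and one kept in the cell body would be higher in the Pan pulldown.

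The values are estimated read counts for 51884 transcript models named by UCSC identifiers, and 0 of these identifiers matched the annotation tables used here. The transcripts are therefore given by identifier and length, with no gene name or function, and the neuronal identity of the cultures was not checked against marker genes. The descriptions of all replicate 2 libraries name the state opposite to their titles, and the titles were followed. With the described states in their place, 2 transcripts were called between the resting pulldowns, both higher with PSD95.

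The PSD95 pulldowns held 12.5, 6.63, 2.95 and 6.54 M counts (M, 1000000) in replicates 1 to 4, and the Pan pulldowns 13.1, 9.30, 13.1 and 19.3 M. The PSD95 library was the shallower one in every replicate, at 0.949, 0.713, 0.226 and 0.338 times the depth of its Pan partner. A single transcript model took 6.45%, 4.61%, 73.9% and 46.6% of the counts in the PSD95 pulldowns and 3.50%, 2.08%, 59.8% and 6.90% in the Pan pulldowns. Without it the PSD95 pulldown of replicate 3 was left with 0.768 M counts, and it had at least 10 counts for 11698 transcripts, the fewest of the 8 libraries. The main limma fit weights each library by an estimated quality, and it gave this library the highest weight of the 8, 2.3. The PSD95 pulldown of replicate 4 had 1.87, and the Pan pulldown of replicate 2 had the lowest, 0.358. Without quality weights, 2 transcripts were called. Counts of calls, the t-statistic counts and the abundance classes are given with and without replicate 3 below. In all, 9695 transcripts had at least 10 counts in each of the 4 PSD95 pulldowns and 18145 in each of the 4 Pan pulldowns, with 9099 in both sets. No transcript had at least 10 counts in all 4 PSD95 pulldowns and 0 in all 4 Pan pulldowns, and 22 had the reverse pattern, in deeper libraries.

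Across 32553 tested transcripts, 3 differed between the PSD95 and the Pan pulldowns at an adjusted p of 0.05 (limma with Benjamini-Hochberg adjustment), which is 0.00922% of those tested. Of these, uc007jtp.2 and uc012eno.1 were higher with PSD95 and uc007osq.2 was lower. An unadjusted p under 0.05 was reached by 3159 transcripts, or 9.70%, of which 1474 were higher and 1685 lower with PSD95. The differences were small for most transcripts, with a median log2 difference of -0.04 and a middle range of -0.45 to 0.37. The number of calls was sensitive to the test and to single replicates. edgeR's quasi-likelihood test called 1 transcript and DESeq2 called 516, of which 180 were higher and 336 lower, and leaving out a replicate gave between 0 (without replicate 1 or replicate 2, with 1066 and 2223 at an unadjusted p under 0.05 by limma) and 5 (without replicate 3).

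The largest called difference belonged to uc007jtp.2, a model of 3326 nt. Its level was 1534, 1703, 2641 and 1245 CPM (counts per 1000000 counts of the TMM-scaled library size) in the PSD95 pulldowns of replicates 1 to 4, against 158, 110, 124 and 200.4 CPM in the Pan pulldowns. The groups did not overlap, and each PSD95 library stood above its Pan partner by 9.72-, 15.5-, 21.2- and 6.21-fold in turn. In TPM (transcripts per 1000000, as deposited) it was 456, 974, 107 and 124 with PSD95 and 65.4, 82.5, 6.78 and 101 with Pan. PSD95 was thus higher in TPM in each replicate too, but only slightly in replicate 4. The means were 1781 ± 604 CPM with PSD95 and 148 ± 40.4 CPM with Pan (SD, n = 4 each). The fitted log2 difference was 3.44 ± 0.42 (SE; 95% interval 2.52 to 4.36), or 10.8-fold, with an adjusted p of 0.0328 by limma.

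Before any pulldown, uc007jtp.2 already differed between the baits. The PSD95 inputs held 1092, 1050, 1368 and 719 CPM of uc007jtp.2 and the Pan inputs 165, 96.0, 156 and 194 CPM, again without overlap. The input difference was 2.88 ± 0.36 on the log2 scale (SE, limma adjusted p = 0.0247), or 7.34-fold. The pulldown difference exceeded the input difference by 0.43 ± 1.35 on the log2 scale (SE; 95% interval -2.35 to 3.22; limma adjusted p = 0.979), in a fit that does not pair the pulldown with the input of its own lysate. Taken lysate by lysate, the pulldown log2 ratio exceeded the input log2 ratio by 0.55, 0.51, 1.28 and 0.74 in replicates 1 to 4, a mean of 0.77 ± 0.35 (SD, n = 4). It was above 0 in 4 of 4 replicates, and the exact two-sided sign-flip permutation test gave p = 0.125, the smallest that 4 replicates allow. The transcript was picked for its small p in these same pulldowns, which favours an excess over the inputs, so this is not separate support. In depolarized neurons the PSD95 pulldowns averaged 1808 ± 946 CPM and the Pan pulldowns 179.6 ± 43.1 CPM of uc007jtp.2 (SD, n = 4 each; 7.38-fold, limma adjusted p = 0.0565). The difference between the resting and the depolarized contrasts was 0.55 ± 0.56 (log2, SE, limma adjusted p = 0.739). The direction was the same in all 16 other analyses of the resting pulldowns, with log2 differences between 3.17 and 3.92, and 10 of them called it. It was not called without replicate 1, 2 or 4, with log2 differences of 3.53, 3.36 and 3.92.

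The 334-nt model uc012eno.1 was the other called transcript on the higher side, with a much smaller change. The PSD95 pulldowns held 7923, 4285, 9363 and 13193 CPM and the Pan pulldowns 5819, 2932, 8314 and 11614 CPM. The groups overlapped widely, since the level moved with the replicate, but within each replicate the PSD95 library was higher in CPM, by 1.36-, 1.46-, 1.13- and 1.14-fold in turn. The direction depended on the measure. In TPM (transcripts per 1000000, as deposited) it was 41127, 45034, 7034 and 22486 with PSD95 and 44853, 38426, 7993 and 106490 with Pan. PSD95 was thus lower in TPM in replicates 1, 3 and 4. The log2 difference was 0.39 ± 0.04 (SE; 95% interval 0.30 to 0.49), or 1.31-fold, with an adjusted p of 0.0264 by limma.

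The inputs did not repeat the higher CPM with PSD95 for uc012eno.1. They held 22363, 11433, 86742 and 80025 CPM with PSD95 and 32773, 10592, 79548 and 96743 CPM with Pan, so that PSD95 was higher in 2 of 4 replicates. The log2 difference in the inputs was -0.14 ± 0.18 (SE, limma adjusted p = 0.964). The pulldown minus input difference was 0.88 ± 1.49 (log2, SE, limma adjusted p = 0.957). Lysate by lysate it was 1.00, 0.44, 0.05 and 0.46 in replicates 1 to 4, above 0 in 4 of 4, with a mean of 0.48 ± 0.39 (SD, n = 4; exact sign-flip permutation p = 0.125, again the smallest possible). Picking uc012eno.1 on these resting pulldowns favours an excess over the inputs and over the depolarized pulldowns, so neither is separate support. In the depolarized pulldowns the log2 difference was -0.38 ± 0.11 (SE, limma adjusted p = 0.214), and the resting difference minus the depolarized one was 0.77 ± 0.12 (log2, SE, limma adjusted p = 0.0559). Only 4 of 17 other analyses called uc012eno.1 in resting pulldowns, and without replicate 1, 2 or 3 it was not called, with log2 differences of 0.21, 0.33 and 0.38. Without the replicate block its log2 difference was 0.03 (limma adjusted p = 0.998).

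On the lower side, uc007osq.2, a model of 4125 nt, had 499, 448, 413 and 477 CPM in the PSD95 pulldowns, against 699, 529, 467 and 619 CPM in the Pan pulldowns. The ranges overlapped, and PSD95 was lower in each of the 4 replicates, at 0.714, 0.847, 0.886 and 0.771 times the Pan level. The log2 difference was -0.43 ± 0.05 (SE, limma adjusted p = 0.0264). In the inputs it had 587, 584, 720.2 and 735 CPM with PSD95 and 756, 727, 659 and 705 CPM with Pan, with a log2 difference of -0.20 ± 0.07 (SE, limma adjusted p = 0.643). PSD95 was thus lower in 2 of 4 input pairs, and the pulldown minus input difference of -0.18 ± 0.12 (log2, SE, limma adjusted p = 0.878) did not pass the test. Lysate by lysate that difference was below 0 in 3 of 4 replicates, with a mean of -0.20 ± 0.22 (SD, n = 4; exact sign-flip permutation p = 0.25). In depolarized pulldowns the log2 difference was -0.31 ± 0.05 (SE, limma adjusted p = 0.0394). uc007osq.2 was called in 3 of 16 other analyses of the resting pulldowns and in none of the 4 that left out a replicate, where its log2 difference lay between -0.41 and -0.34. Without quality weights it was not called either, with a log2 difference of -0.41 (limma adjusted p = 0.282).

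The next transcript on the lower side that was lower in every replicate, uc056ysx.1 (2912 nt), did not pass the test. It had 46.9, 30.7, 55.7 and 33.2 CPM in the PSD95 pulldowns, against 98.0, 42.8, 76.8 and 79.1 CPM in the Pan pulldowns. The ranges overlapped, and the log2 difference was -0.97 ± 0.13 (SE, limma adjusted p = 0.0706). Of 16 other analyses 3 called it, DESeq2 (adjusted p = 0.000475), limma with no filter on low counts (adjusted p = 0.0388) and limma at a mean CPM of at least 5 (adjusted p = 0.0241). The inputs had 39.4, 13.5, 87.0 and 79.2 CPM with PSD95 and 76.6, 60.4, 93.0 and 99.5 CPM with Pan, lower with PSD95 in all 4 pairs too (log2 difference -0.47 ± 0.29, SE, limma adjusted p = 0.894).

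**Figure D1:**
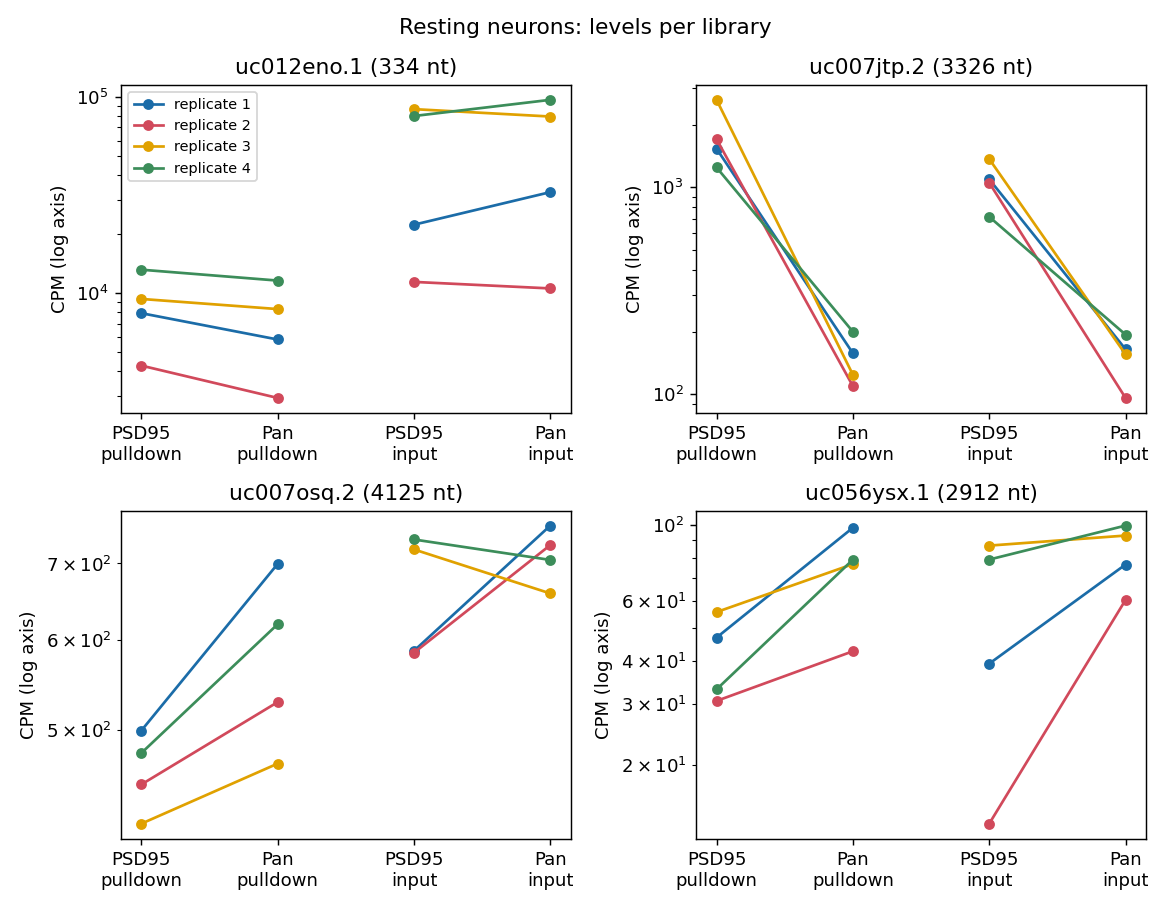
Level of each described transcript in resting neurons, in CPM on a log axis, with the PSD95 library left of the Pan library of the same replicate and lines joining partners. uc007jtp.2 is far higher with PSD95 in pulldowns and inputs alike, whereas the ranges of the other transcripts overlap in the pulldowns.

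The inputs were tested in the same way, as the background. Of 27887 transcripts tested in the resting inputs, 10 passed (0.0359%), 9 higher and 1 lower with PSD95, and 1721 (6.17%) had an unadjusted p under 0.05 by limma. The interaction of bait and fraction, which asks whether the bait difference in the pulldowns exceeds that in the inputs, passed for 2 of 34696 transcripts (0.00576%), both in the higher direction, and 2104 (6.06%) had an unadjusted p under 0.05. None of the described transcripts was among those 2.

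**Figure D2:**
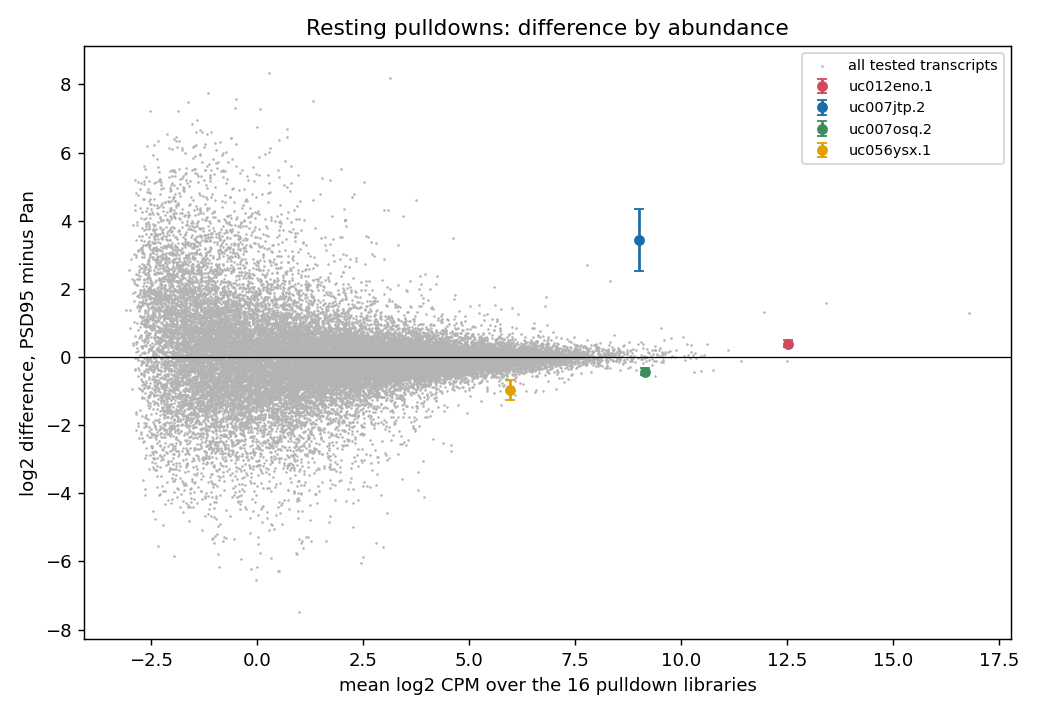
Log2 difference of PSD95 minus Pan in resting pulldowns (vertical axis) against the mean log2 CPM of each transcript over all pulldowns (horizontal axis). Grey points are the 32553 tested transcripts and coloured points the described ones with their 95% intervals. The differences spread widely among scarce transcripts and narrow with abundance, and uc007jtp.2 stands apart at 3.44.

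The precision behind these differences followed abundance. Below a mean log2 CPM of 0, the median 95% interval reached 6.61-fold to either side of the estimate over 9532 transcripts. It narrowed to 3.05-fold between 0 and 2, to 1.74-fold between 2 and 4 and to 1.32-fold between 4 and 6. At 8 or more it was 1.13-fold, over 250 transcripts. A difference of 2-fold was therefore within the error of most scarce transcripts and well outside that of abundant ones. Among the 7212 transcripts with a mean log2 CPM of 4 or more, 86 (1.19%) differed by over 2-fold, 50 higher and 36 lower with PSD95. Of the 250 most abundant, 7 differed by over 1.5-fold.

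A t-statistic above 1, the cut-off used in the study's methods to call a transcript enriched near PSD95, is much looser than the adjusted p. It was passed by 6281 transcripts, 19.3% of those tested, and 7781 transcripts, 23.9%, had a t-statistic below -1. In the resting inputs, where nothing had been enriched, 5185 transcripts (18.6%) had a t-statistic above 1 and 4717 (16.9%) had one below -1. The share above 1 was thus 19.3% in pulldowns and 18.6% in inputs, while the share below -1 was 23.9% and 16.9%. Which of the pulldown lists was the larger depended on the analysis. With RLE size factors in place of TMM factors 7483 transcripts were above 1 and 6531 below -1, without replicate 4 the counts were 7021 and 6375, and among transcripts with whole counts they were 939 and 796. Each of these puts the larger list on the other side. With limma-trend the counts were 3509 and 9046, with no filter on low counts 14732 and 8162, without replicate 1 they were 3989 and 4999, and without replicate 3 they were 6766 and 7586.

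Transcripts above and below these limits differed in abundance and size of change. Those with a t-statistic above 1 had a median log2 CPM of 1.05 and a median log2 difference of 1.13, and those below -1 had 2.13 and -0.84, against a median log2 CPM of 1.64 over all tested. The median lengths were 2807 nt above 1, 3057 nt below -1 and 2811 nt over all. Of the 6281, 1674 averaged at least 200 counts over the pulldowns, with a median log2 difference of 0.29, and of the 7781 there were 2300 such transcripts, with a median of -0.32. A log2 difference under 0.5 in size was found for 1294 of the 1674 and for 1745 of the 2300, so the better measured transcripts of both lists changed little.

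The share above 1 was highest at both ends of the abundance range. It was 26.1% below a mean log2 CPM of 0, 14.3% from 0 to 2, 14.4% from 2 to 4, 18.1% from 4 to 6, 27.4% from 6 to 8 and 44.4% at 8 or more. In the inputs it was 18.5% in the scarcest class and then 17.6%, 16.6%, 18.7%, 27.0% and 50.2%. The rise among abundant transcripts was thus present in both fractions, and the excess among scarce ones in the pulldowns. Of the 250 transcripts in the most abundant pulldown class, 111 had a t-statistic above 1, and 75 of those 111 (67.6%) also had one above 1 in the inputs, against 47.6% of all 250. Both moved with the test. In limma-trend the count added before taking logs scales with library size. There the share above 1 was 11.3% below a mean log2 CPM of 0 and 20.8% at 8 or more. At 8 or more the share below -1 was 20.8% too, against 22.0% in the main fit. By direction with TMM scaling, 6.80% of that pulldown class were higher with PSD95 in all 4 replicates and 12.4% lower. In the most abundant input class these were 10.9% and 3.48%. Without replicate 3 the share above 1 was 22.1% in the scarcest class, where 23.3% were below -1, and 14.5%, 15.9%, 22.0%, 33.7% and 52.9% in the following classes. The PSD95 pulldowns were the shallower libraries, by the ratios given above, and the part of depth in these shares was not tested.

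**Figure D3:**
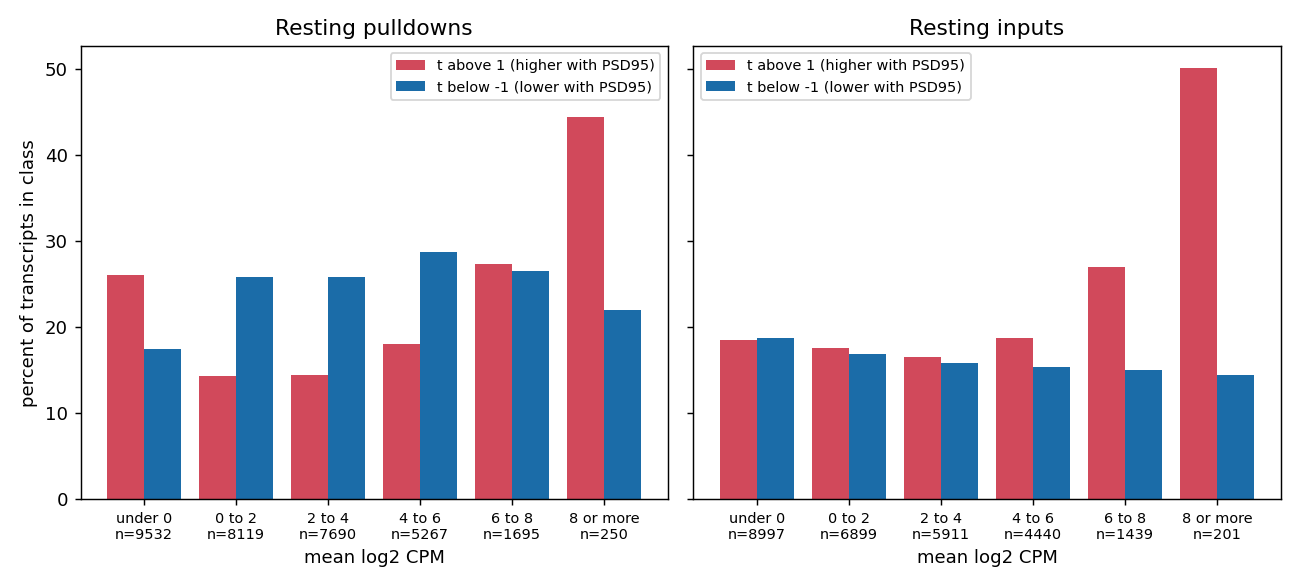
Percent of transcripts with a t-statistic above 1 (red, higher with PSD95) and below -1 (blue, lower with PSD95) by class of mean log2 CPM, in resting pulldowns (left) and resting inputs (right). The red bar of the most abundant class is the tallest in both panels, at 44.4% and 50.2%, and the scarcest class has a raised red bar in the pulldowns, at 26.1%.

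The replicates were then set side by side, since the PSD95 and Pan libraries of a replicate were processed together. Of the 6281 transcripts with a t-statistic above 1, 996 (15.9%) were higher with PSD95 in all 4 replicates, 2570 in 3, 1986 in 2 and 621 in 1. Of the 7781 below -1, 2542 (32.7%) were lower in all 4. Over all tested transcripts, 1157 (3.55%) were higher in 4 of 4 replicates and 2871 (8.82%) were lower in 4 of 4. In the resting inputs these counts were 1402 (5.03%) and 1395 (5%).

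Many scarce transcripts cannot show a direction in every pair. Of the 32553 tested transcripts 7322 had a tie, mostly 0 against 0, in at least 1 replicate. Of the 8225 that averaged at least 200 counts only 128 had a tie. Among the 8225 transcripts averaging at least 200 counts over the pulldowns, 403 (4.90%) were higher with PSD95 in all 4 replicates and 992 (12.1%) were lower. In the inputs, 442 (7.03%) of 6289 were higher in all 4 and 329 (5.23%) were lower. Among these 8225 transcripts the excess on the lower side did not hold under other scalings. With RLE size factors 783 pulldown transcripts (9.52%) were higher in all 4 and 611 (7.43%) lower, and with each replicate centred on its own median ratio 752 (9.14%) were higher and 680 (8.27%) lower. Over all 32553 tested transcripts the lower side stayed the larger. RLE factors gave 1732 higher and 2173 lower, and centring gave 1915 higher and 2769 lower. These counts include scarce transcripts, the PSD95 library was the shallower one in every replicate, and the part of depth in them was not tested. Among the 6289 input transcripts averaging at least 200 counts, 409 (6.50%) were higher and 386 (6.14%) lower after the same centring.

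**Figure D4:**
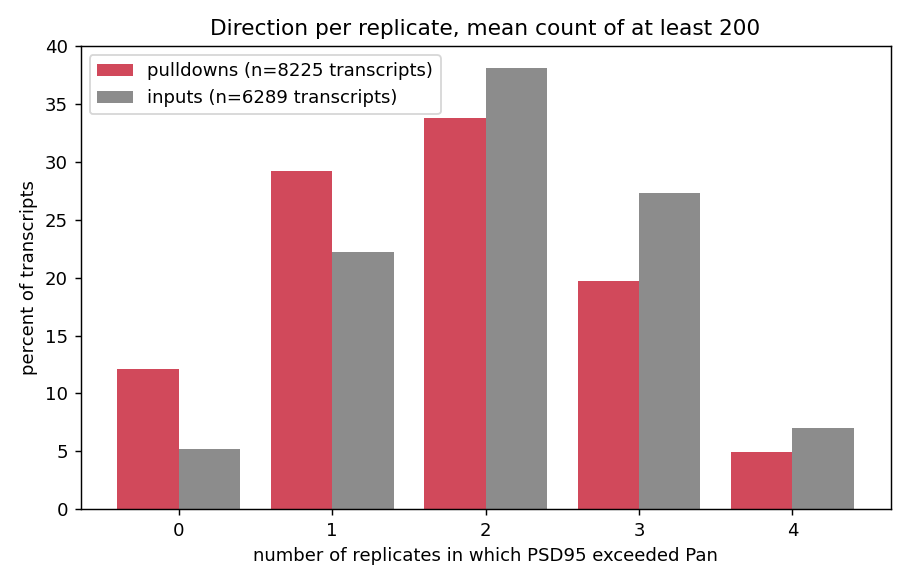
Percent of transcripts averaging at least 200 counts (vertical axis) by the number of replicates in which PSD95 exceeded Pan (horizontal axis), in resting pulldowns (red) and inputs (grey), with TMM scaling. The bar at 0 counts transcripts lower with PSD95 in all 4 replicates, and it is 12.1% in the pulldowns and 5.23% in the inputs, a gap that depends on the scaling.

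The per-replicate ratios show where that dependence lies. Over the same 8225 transcripts, PSD95 over Pan had a median of 0.01, 0.05, -0.21 and -0.11 on the log2 scale in replicates 1 to 4. The ratios spread with an SD of 0.76, 1.95, 2.17 and 1.17 on the log2 scale, and 5.62%, 21.9%, 20.9% and 8.80% of the transcripts differed by over 2-fold. Replicate 1, with the deepest PSD95 library and partners of nearly equal depth, was the tightest, and replicate 3, with the shallowest PSD95 library, had the largest SD, while replicate 2 had the largest share over 2-fold. In the inputs the SD was 0.76, 1.87, 1.30 and 0.96, so replicate 2 was wide in both fractions.

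By class of abundance, the median ratio in the pulldowns was higher among the most abundant transcripts than between 0 and 2 in each of the 4 replicates. At a mean log2 CPM of 8 or more it was 0.12, 0.12, -0.19 and -0.04 in replicates 1 to 4, a mean of 0.002 ± 0.15 (SD, n = 4). Between 0 and 2 it was -0.09, -0.06, -0.24 and -0.26, below 0 in every replicate, with a mean of -0.16 ± 0.10. Below a mean log2 CPM of 0 the pulldown medians were 0, 0, 0 and -0.31, so the ratio did not rise evenly with abundance. In the inputs the most abundant class had 0.13, 0.03, -0.12 and 0.11, and the class between 0 and 2 had -0.10, -0.01, 0.02 and 0.02. The abundant input class was thus also the higher one in replicates 1, 2 and 4.

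**Figure D5:**
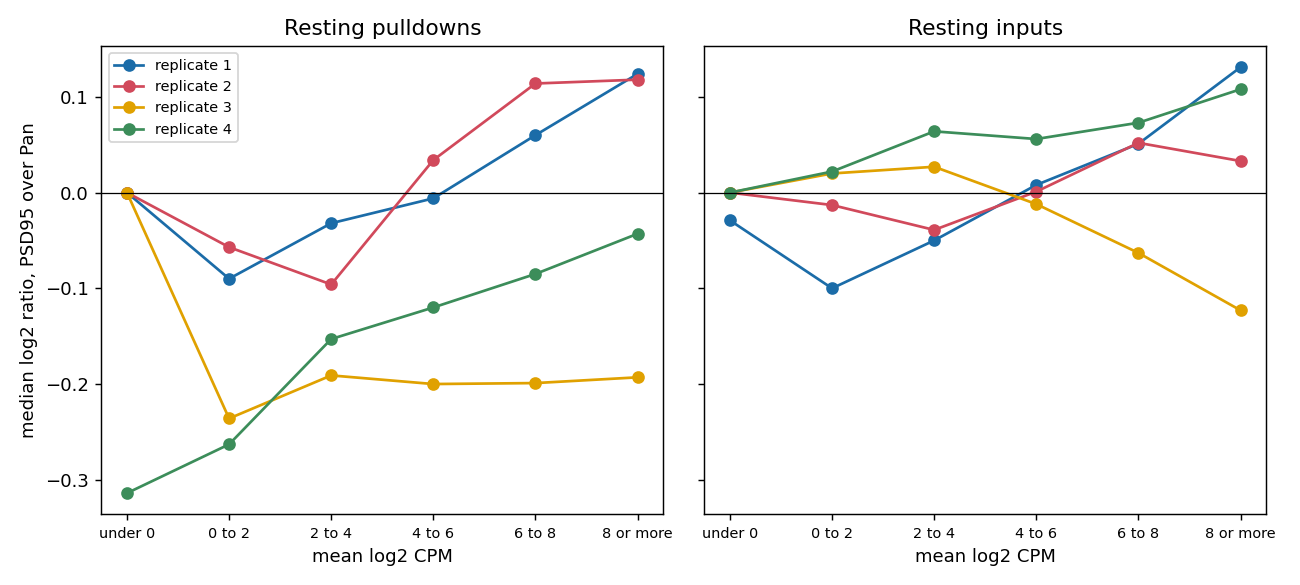
Median PSD95-to-Pan ratio on the log2 scale (vertical axis) by class of mean log2 CPM (horizontal axis), one line for each replicate, in resting pulldowns (left) and resting inputs (right). In the pulldowns replicates 3 and 4 lie below 0 in each class from 0 to 2 upwards, whereas replicates 1 and 2 cross above 0 among abundant transcripts.

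The ratios were barely related between replicates. Over the 8225 transcripts, the Pearson correlation of the PSD95 over Pan log2 ratios between any pair of resting pulldown replicates lay between -0.02 and 0.10, with replicates 1 and 4 the highest. In the inputs it lay between -0.08 and 0.05 over 6289 transcripts. Pulldown and input ratios of the same replicate, which come from the same lysate, had correlations of 0.24, -0.02, 0.03 and 0.01 over 6134 transcripts. These are descriptions across transcripts, which are not independent replicates.

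Transcript length was examined because it was the only property of a transcript given with the counts. The share of transcripts with a t-statistic below -1 in the pulldowns was 19.7% under 1000 nt, 20.9% from 1000 to 2000 nt, 23.5% from 2000 to 4000 nt, 27.6% from 4000 to 8000 nt and 32.8% at 8000 nt or more. In the inputs it went the same way, with 13.1%, 16.3%, 16.7%, 18.1% and 22.2%. The share above 1 stayed between 18.7% and 20.8% in the pulldowns. The median standard error of the log2 difference was 0.69 under 1000 nt and 0.39 at 8000 nt or more, so long transcripts were also the better measured ones.

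Per replicate, among the same 8225 transcripts and relative to the median of that replicate, the length classes differed by small amounts. The mean of the replicate medians was 0.03 ± 0.14 under 1000 nt, 0.02 ± 0.02 from 1000 to 2000 nt, 0.01 ± 0.01 from 2000 to 4000 nt, -0.01 ± 0.02 from 4000 to 8000 nt and -0.04 ± 0.04 at 8000 nt or more (log2, SD, n = 4). An exact two-sided sign-flip permutation test over the 4 replicates gave p between 0.25 and 0.75 for the 5 classes (Benjamini-Hochberg adjusted 0.417 to 0.75), and the smallest p it allows is 0.125, so it could not pass. It sets each class against the replicate median and not against another class. The value under 1000 nt was -0.03, 0.06 and 0.08 without replicate 2, 3 and 4 in turn, and at 8000 nt or more it was -0.02 to -0.05 when a replicate was left out. Classes were also set against each other after their values were seen, with no test. The class of 8000 nt or more was below that of 1000 to 2000 nt in 4 of 4 replicates. In the pulldowns the gap was -0.115, -0.087, -0.003 and -0.001 in replicates 1 to 4, so replicates 3 and 4 hardly differed. In the inputs it was -0.014, -0.143, -0.026 and -0.145. The means were -0.05 ± 0.06 in the pulldowns and -0.08 ± 0.07 in the inputs (log2, SD, n = 4 each). The inputs had 0.05 ± 0.04 in the shortest and -0.05 ± 0.04 in the longest class.

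The pulldown lists were then read against the inputs over the 27167 transcripts tested in both. Of 4950 transcripts above 1 in the pulldowns, 1356 were also above 1 in the inputs, 27.4% of the pulldown list and 26.9% of the input list of 5049, where 18.6% of all transcripts tested in both were above 1 in the inputs. In the opposite direction, 632 of the 4950 (12.8%) were below -1 in the inputs. Of 6877 transcripts below -1 in the pulldowns, 1476 were below -1 in the inputs as well, 21.5% of the pulldown list and 32.2% of the input list of 4577, against 16.8% of all transcripts tested in both, and 958 (13.9%) were above 1 there. The pulldown and the input of a replicate come from the same lysate.

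Against depolarized neurons, 1454 transcripts had a t-statistic above 1 in both states, 23.1% of the resting list and 17.6% of the depolarized list of 8262. Over all tested transcripts, 25.4% were above 1 in the depolarized pulldowns. Below -1 there were 1425 shared, 18.3% of the resting list and 22.8% of the depolarized list of 6245, against 19.2% of all tested. The same limma fit called 42 transcripts (0.129%) in depolarized pulldowns, 6 higher and 36 lower with PSD95, against the 3 in resting pulldowns, and whether the number of calls differs between states was not tested.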

How the data were processed

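The authors made the estimated counts and TPM values per transcript model with Salmon, against mm10 per the submitters' processing notes (versions not given in the sources used here), from stranded, ribosome-depleted libraries. The deposited estimated counts, which need not be whole, were rounded. TPM and length were deposited in the same tables, and only counts and lengths enter the results. As in the study's methods, but with every transcript model in place of the longest for each gene, since the identifiers could not be joined to genes here, transcripts passing filterByExpr were scaled with TMM factors and fitted with voomWithQualityWeights in limma 3.58.1 (edgeR 4.0.16, R 4.3.3) on bait-by-state group and replicate. The pulldown fit held 16 libraries, the input fit 16 and the interaction fit all 32. Each was adjusted over all tested transcripts by Benjamini-Hochberg at 0.05. Scripts were tested on simulated data.

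The replicate block rests on the study's statement that samples of a replicate were processed together. Deviations from the group means correlated at 0.269, 0.094, 0.115 and 0.137 between same-numbered PSD95 and Pan libraries, and at up to 0.128 between differently numbered ones. Groups come from the titles. The descriptions of 8 libraries, those of replicate 2, name the opposite state, and 2 of these are resting pulldowns by title. Titles and treatment labels agree and were kept. Whether replicates are separate cultures is stated only as biological replicates.

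CPM are relative to the TMM-scaled library size. Replicate ratios were taken on log2 CPM after adding 2 counts, scaled to library size. Named transcripts are the 2 with the smallest p in each direction that were called or that reached a mean log2 CPM of 5 with the same direction in all 4 replicates. The resting pulldown ratios on which they were picked also enter their pulldown minus input and resting minus depolarized differences, which are therefore not independent support. Members and lists were chosen with earlier results of these data known. Alternatives were edgeR, DESeq2 1.42.0, no quality weights, RLE factors, other filters, no block, other library sets, whole-count transcripts, each replicate left out, and, chosen after seeing the data, limma-trend, the abundance classes without replicate 3 and 2 other scalings of the replicate directions. Total counts were 2.95 to 19.3 M (M, 1000000) per resting pulldown. Intervals and SEs come from the weighted fits over all their libraries, and they do not measure the spread of the 4 resting pairs.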

Additional observations from a re-analysis of the deposited data

Results flagged for a closer look

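The share of counts taken by the most abundant transcript model was 59.8% in the resting Pan pulldown of replicate 3, against 3.50%, 2.08% and 6.90% in the other Pan pulldowns of resting neurons, so that this library lies far from the others of its group. Chance flags about 1 in 20 such groups, and 33 groups were examined. Without that transcript, 2 transcripts passed in place of 3, and without replicate 3, 5 passed. The same model also took a large share in the other replicate 3 libraries. It was 73.9% in the resting PSD95 pulldown, 44.8% and 28.0% in the resting Pan and PSD95 inputs, and 48.3% to 78.9% in the depolarized libraries. Outside replicate 3 it took 46.6% in the resting PSD95 pulldown and 84.8% in the depolarized Pan input of replicate 4.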

How the results depend on the processing

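No direction of a described transcript reversed in the other analyses of the counts, but the log2 difference of uc012eno.1 was only 0.03 without the replicate block. For the resting pulldowns, with 3 calls, the count was 1 with edgeR, 516 with DESeq2, 46 with no filter, 9 at a mean CPM of at least 5, 1 from the 8 resting pulldowns only, 27 from all 32 libraries in 1 model, 19 among transcripts with whole counts, 1 with limma-trend and 0 to 5 when a replicate was left out. For the inputs, with 10 calls, it was 0 with edgeR, 329 with DESeq2, 116 with no filter, 0 at a mean CPM of at least 5, 0 with the states named in the descriptions, 3 with limma-trend and 0 to 4 without 1 replicate. For the pulldown minus input difference, with 2 calls, it was 0 with edgeR, 498 with DESeq2, 1 without quality weights, 17 with no filter, 0 at a mean CPM of at least 5, 0 with limma-trend and 0 to 2 without 1 replicate. Where edgeR called 0, 613 input and 1421 interaction transcripts had an unadjusted p under 0.05.

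Without the replicate block no transcript was called in the pulldowns, inputs or interaction (0 each, with 1677, 1005 and 1655 at an unadjusted p under 0.05 by limma), and 4127 pulldown transcripts had a t-statistic above 1 in place of 6281. That list held 14732 of 45638 tested with no filter and 3823 of 18015 at a mean CPM of at least 5. Among whole counts it held 939 of 3779, with limma-trend 3509 of 32553, and without 1 replicate 3989 to 7021. The list below -1 held 4416 at a mean CPM of at least 5, 796 among whole counts and 4999 to 7586 without 1 replicate. Lower in all 4 replicates were 1660 at a mean CPM of at least 5, and higher in all 4 were 1915 after centring. The prior count cannot change a direction, since it scales with library size. The median log2 difference over all transcripts was -0.19 with limma-trend, 0.15 with no filter and 0.02 with RLE factors, against -0.04. A stricter filter or the whole-count set tests fewer transcripts, and no filter tests more. A smaller or larger count there is therefore not a smaller or larger share of those tested. The cause of the other changes was not tested. Among whole-count transcripts the length classes of 1000 to 2000 nt and of 8000 nt or more had -0.012 and 0.015, against 0.016 and -0.035. Below a mean log2 CPM of 0 the median interval spans 6.61-fold to either side.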
